A study of Mus musculus with 8 samples.

Results

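Tsc22d3 encodes the glucocorticoid-induced leucine zipper GILZ, and its transcript was described here in mouse CD8+ T cells that have or lack the adaptor protein ASC, together with those of its family and of other genes that respond to glucocorticoids. The members were the family genes Tsc22d3, Tsc22d1 and Tsc22d4, the glucocorticoid receptor gene Nr3c1, and the receptor's target genes Fkbp5, Per1, Sgk1, Ddit4, Txnip and Zbtb16. All probes that the platform annotation gives to these symbols were taken. Of the 10 genes, 9 had a probe, with 12 probes among the 25697 on the array, and Zbtb16 had no annotated probe among those used here. Tsc22d3 was picked because its transcript was already known to be higher in the knockout on these same arrays, so its difference is a description and carries no test. The other members were picked by their known function, with earlier results of the same contrast in view.

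Glucocorticoids enter the cell and bind a receptor that chaperones of the Hsp90 machinery hold in the cytosol. The bound receptor moves to the nucleus and binds response elements, each an inverted repeat of short arms around a spacer, from which it induces genes such as Tsc22d3, Fkbp5 and Per1, while it restrains many inflammatory cytokine genes. In T cells GILZ is known for dampening NF-kB and AP-1 activity. Several of these targets also answer to other signals, such as forkhead factors of the FoxO class, nutrient stress, glucose and the circadian clock.

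CD8+ T cells of C57BL/6 mice made up all 8 samples, 4 from wild type and 4 from ASC knockout, and each was run on 1 single-colour Illumina bead array. The labels give no glucocorticoid treatment, stimulation, time of day, sorting method or animal for any sample, and do not describe the knockout allele. Nothing says that the replicates were separate animals, so errors and p-values reflect only how far these 8 samples vary, perhaps for technical reasons alone. As these are bulk samples, fewer cells of a type and less RNA per cell cannot be told apart.

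Pycard encodes ASC, and its probe passed detection on all 4 wild type arrays and on 0 of 4 from the knockout, with mean signals of 500.1 ± 19.0 and 121.5 ± 2.57 (SD, n = 4 each), at least 12.7-fold lower in the knockout. Detection means a detection p-value under 0.05. It was met by 42.8% to 44.5% of probes on wild type arrays and by 44.9% to 45.4% on knockout arrays. Each knockout array thus detected more probes than each wild type array. What this contributes to the detection of dim probes or to the differences below was not tested. The T cell genes Cd3d, Cd3e, Cd3g and Cd2 and the CD8 beta chain gene Cd8b1 were detected on all 8 arrays. The 1 probe for the CD8 alpha chain gene Cd8a was detected on 0 of 8. Signals below are the deposited, non-normalized probe signals in arbitrary units, and differences are knockout minus wild type on the log2 scale after background correction and quantile normalization.

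Of the 12 member probes, 9 were detected on all 8 arrays and 3 on none. The 9 detected probes belonged to 7 genes and were tested among 11270 probes. The 3 undetected probes were the only one for Nr3c1 and both for Tsc22d1. The receptor's probe ILMN_2740568 ran from 126.7 to 133.8 in wild type and from 128.0 to 134.4 in the knockout, so no difference in receptor transcript was measurable with it. The Tsc22d1 probes ILMN_2677878 and ILMN_2723108 lay between 114.0 and 129.6 on every array. Tsc22d1 encodes a transcriptional regulator of the same family, first known as a gene that TGF-beta induces.

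The brighter Tsc22d3 probe, ILMN_3150811, gave signals of 475.3, 558.1, 646.7 and 934.1 in wild type replicates 1 to 4. In the knockout it gave 1379.6, 1116.9, 1939.1 and 1398.6. Each knockout array was above each wild type array, and wild type replicate 4 came closest to the knockout. Wild type arrays spanned 1.30 log2 units of normalized signal and knockout arrays 0.755, so the spread within a group was wide beside the difference. That difference was 1.48 ± 0.257 (log2, SE, n = 4 per group), with a 95% interval of 0.91 to 2.05, or 2.78-fold. When 1 array was left out it ranged from 1.27, without wild type replicate 1, to 1.70, without wild type replicate 4.

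The other Tsc22d3 probe, ILMN_2701664, is annotated to a different RefSeq transcript of the gene and was dim. It gave 145.7, 141.8, 152.8 and 185.0 in wild type and 200.6, 159.4, 214.0 and 190.6 in the knockout. The groups overlapped here, since knockout replicate 2 lay below wild type replicate 4. The difference was 0.90 ± 0.255 (log2, SE, n = 4 per group), but only 0.33 without background correction, so its size is uncertain. Both probes put the knockout higher in every processing tried.

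The gene lies on chromosome X, from 140539528 to 140600522 in GRCm38.p6, and RefSeq has 3 start sites for it in the promoter table used here. The 250 bases before each start are printed because the 2 probes are annotated to different transcripts, though which start serves which probe was not assigned. Sequences are from RefSeq on GRCm38.p6, 5′ to 3′ on the minus strand. Capitals mark matches on either strand to 5 motifs: the full response element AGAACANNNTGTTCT, its looser form GNACANNNTGTNC, a single arm AGAACA, the forkhead motif GTAAACA and the E-box CACGTG. The first 3 can overlap each other.
Tsc22d3 chrX:140600523-140600772: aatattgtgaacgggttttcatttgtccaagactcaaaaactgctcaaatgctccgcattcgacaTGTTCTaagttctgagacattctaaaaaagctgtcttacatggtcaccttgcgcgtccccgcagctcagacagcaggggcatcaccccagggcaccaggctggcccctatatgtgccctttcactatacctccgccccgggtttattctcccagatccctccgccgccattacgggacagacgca
Tsc22d3 chrX:140548572-140548821: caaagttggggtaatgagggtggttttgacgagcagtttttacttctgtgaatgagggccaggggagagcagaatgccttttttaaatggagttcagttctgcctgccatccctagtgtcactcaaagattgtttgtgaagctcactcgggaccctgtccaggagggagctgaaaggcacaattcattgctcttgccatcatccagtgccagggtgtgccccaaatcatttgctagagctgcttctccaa
Tsc22d3 chrX:140542669-140542918: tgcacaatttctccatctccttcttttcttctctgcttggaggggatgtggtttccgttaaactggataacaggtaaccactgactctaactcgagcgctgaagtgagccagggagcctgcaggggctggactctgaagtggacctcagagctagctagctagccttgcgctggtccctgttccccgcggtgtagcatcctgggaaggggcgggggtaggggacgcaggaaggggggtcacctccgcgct
The most upstream start had 1 match, a single arm on the opposite strand, with its last base at position -180 from the start, and such an arm is in 16.1% of all 32851 windows of this length. Neither of the other two windows held any of the 5 motifs. A missing match says only that these letters are absent from these bases.

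Tsc22d4, a family member known for roles in osmotic stress and in metabolism, did not share the direction of Tsc22d3. Its probe ILMN_2638061 gave 398.4, 371.3, 363.5 and 406.2 in wild type and 346.6, 285.6, 334.3 and 310.5 in the knockout. All 4 knockout arrays were below all 4 wild type arrays. The difference was -0.27 ± 0.0888 (log2, SE, n = 4 per group, 95% interval -0.47 to -0.07), with a limma adjusted p of 0.223 over all tested probes. Of the family, then, 1 gene was higher in the knockout, 1 was at a lower mean that missed the threshold, and 1 was not detected.

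**Figure D1:**
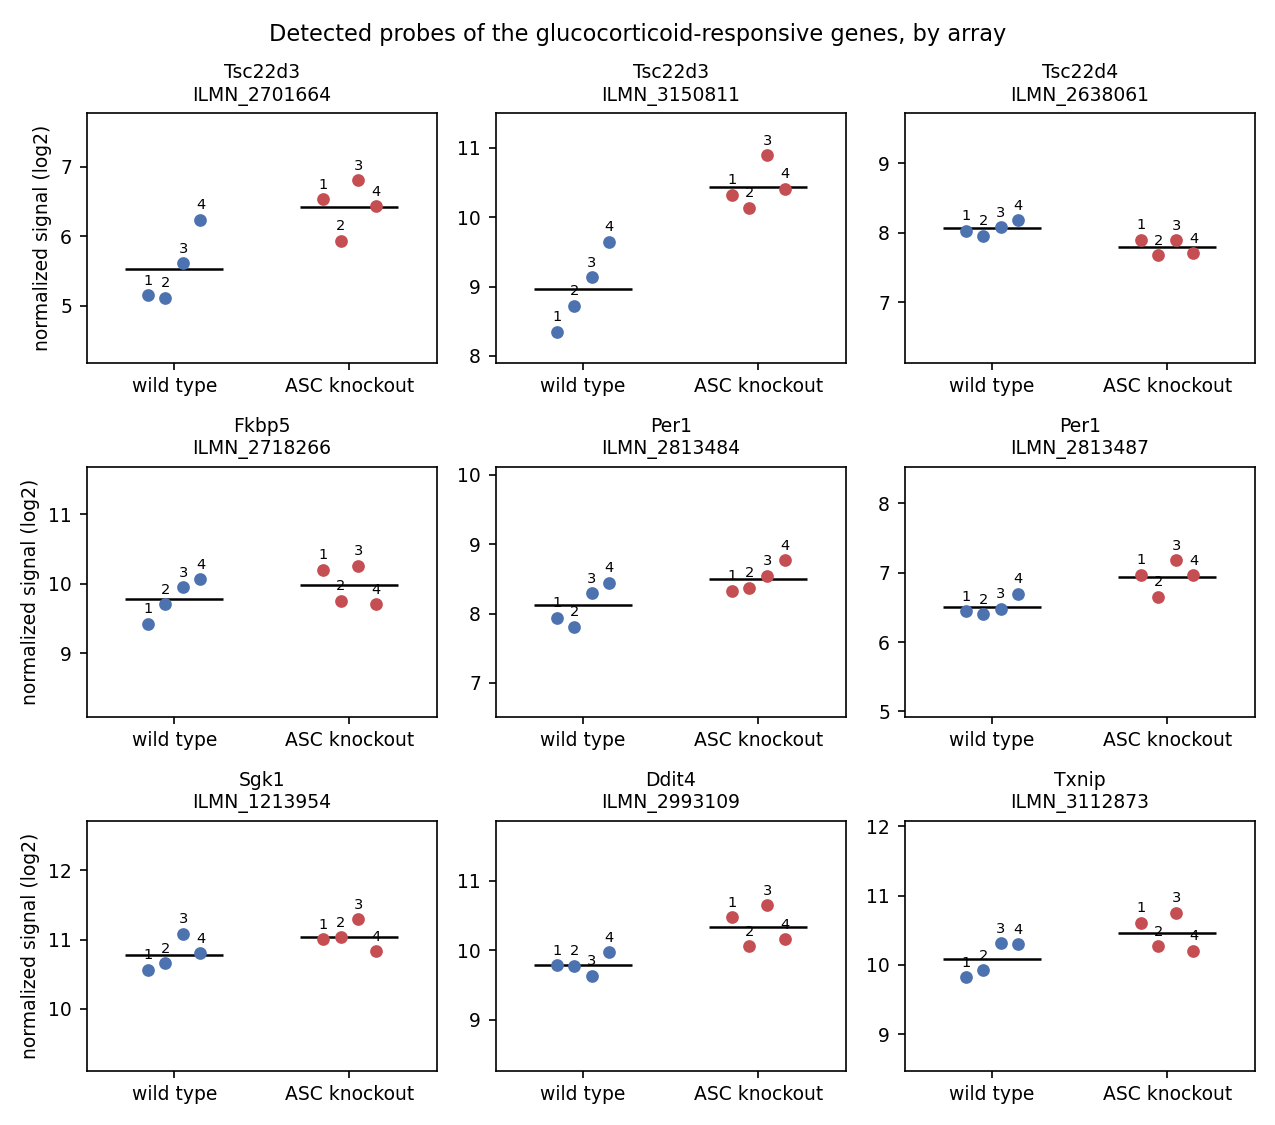
Normalized log2 signal of the 9 detected member probes on each array, with the replicate number above each point, wild type in blue, ASC knockout in red and group means as black lines. Each panel spans the same number of log2 units, and only Tsc22d3 ILMN_3150811, Tsc22d4 and Ddit4 have groups that do not overlap.

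Among the target genes, Ddit4 had the largest difference after Tsc22d3. Ddit4 encodes REDD1, a stress-induced brake on the growth kinase mTORC1. Its probe ILMN_2993109 gave 1093.8, 1046.4, 866.9 and 1153.1 in wild type and 1513.2, 1056.6, 1665.2 and 1196.8 in the knockout. Those signals overlapped between groups, whereas after normalization all 4 knockout arrays were above the wild type arrays. The difference was 0.55 ± 0.137 (log2, SE, n = 4 per group, 95% interval 0.24 to 0.85), with a limma adjusted p of 0.117. It passed the threshold of 0.05 in 4 of 10 other processings and in 0 of 8 fits without 1 array, at adjusted p-values from 0.0216 to 0.255.

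Per1, a core repressor of the circadian clock and a classic immediate target of the receptor, had 2 probes that pointed the same way. ILMN_2813484 gave 382.0, 344.3, 403.7 and 468.5 in wild type and 426.3, 399.8, 468.6 and 525.9 in the knockout. ILMN_2813487 was dimmer, at 203.8, 195.3, 190.6 and 214.2 against 231.9, 194.6, 247.3 and 228.0. After normalization the groups overlapped at each probe through wild type replicate 4, which lay above knockout replicates 1 and 2 at the first probe and above replicate 2 at the second. Their differences were 0.38 ± 0.153 and 0.44 ± 0.118 (log2, SE, n = 4 per group), at limma adjusted p-values of 0.327 and 0.136. Without background correction the dimmer probe was at 0.22.

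Txnip encodes a thioredoxin-binding arrestin that curbs glucose uptake. Its probe ILMN_3112873 gave 1120.8, 1152.7, 1334.9 and 1410.0 in wild type and 1644.1, 1204.4, 1777.2 and 1232.5 in the knockout. Knockout replicates 1 and 3 were above every wild type array, while 2 and 4 fell inside the wild type range. The difference was 0.37 ± 0.156 (log2, SE, n = 4 per group, 95% interval 0.02 to 0.72, limma adjusted p = 0.351). The 250 bases before its start are shown because they held both a looser response element, found in 0.387% of windows, and a forkhead motif, found in 3.17%. Those elements are in capitals and begin at positions -172 and -121 from the start, on the plus strand of GRCm38.p6.
Txnip chr3:96557707-96557956: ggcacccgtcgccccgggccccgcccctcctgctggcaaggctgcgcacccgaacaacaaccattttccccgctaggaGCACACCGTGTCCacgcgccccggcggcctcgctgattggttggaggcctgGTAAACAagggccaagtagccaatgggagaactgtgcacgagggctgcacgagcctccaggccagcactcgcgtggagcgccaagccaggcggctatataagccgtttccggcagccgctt

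Sgk1 encodes a kinase that regulates ion channels and forkhead factors and is induced by glucocorticoids and mineralocorticoids. Its probe ILMN_1213954 gave 1797.0, 1841.0, 2214.0 and 1953.4 in wild type and 2109.0, 2005.9, 2546.1 and 1842.7 in the knockout. The groups overlapped, and only knockout replicate 3 was above every wild type array. The difference was 0.26 ± 0.131 (log2, SE, n = 4 per group, 95% interval -0.03 to 0.55, limma adjusted p = 0.443), and 0.16 with median scaling over all probes. Of the 19 member windows, 1 of the 6 at Sgk1 was the only one with a full response element, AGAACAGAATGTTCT, which spans positions -189 to -175 from that start. It is printed for that reason, as 3 of all 32851 windows, or 0.00913%, hold the full element.
Sgk1 chr10:21993640-21993889: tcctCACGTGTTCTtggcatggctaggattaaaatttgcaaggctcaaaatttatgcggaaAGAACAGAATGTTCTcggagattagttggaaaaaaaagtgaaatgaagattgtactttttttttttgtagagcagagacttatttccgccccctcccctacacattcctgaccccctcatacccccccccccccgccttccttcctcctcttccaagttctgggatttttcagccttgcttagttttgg
The window also held an E-box, as 6.02% of windows did, which overlaps 1 further single arm. A match is a description of letters and was not measured as receptor binding.

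Fkbp5 encodes a co-chaperone of the receptor and is among its most widely used target genes. Its probe ILMN_2718266 gave 881.7, 997.3, 1063.2 and 1218.5 in wild type and 1280.9, 880.4, 1284.8 and 906.5 in the knockout. Knockout replicates 1 and 3 lay above the wild type arrays and 2 and 4 among or below them. The difference was 0.19 ± 0.17 (log2, SE, n = 4 per group, 95% interval -0.18 to 0.57, limma adjusted p = 0.684), the smallest among the tested targets. It was 0.0747 without wild type replicate 1, 0.118 without knockout replicate 1, 0.102 without knockout replicate 3 and 0.0888 with median scaling over all probes, so single arrays set much of its size.

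Set side by side, 5 of the 6 tested members other than Tsc22d3 were above 0 at their brightest probe, and these were the tested target genes. The 1 below was the family gene Tsc22d4. The median of the 6 was 0.31 against -0.00685 over all tested probes. Above 0 lay 48.3% of all tested probes. None of the 6 passed limma's adjusted p of 0.05 in either direction, while 0.843% of all tested probes did, 0.435% higher and 0.408% lower in the knockout. At an unadjusted limma p under 0.05 there were 3 higher, Ddit4, Per1 and Txnip, and 1 lower, Tsc22d4, by any probe of the gene. Of all tested probes 6.61% were higher and 6.40% lower at that level. Groups did not overlap for 2 of the 6, Ddit4 and Tsc22d4, the former higher and the latter lower, as for 8.12% of tested probes, 3.91% higher and 4.21% lower. With Tsc22d3 counted, 1 member gene was called higher, and nothing is read from this since the gene was picked for it. That call was lost, leaving 0, when any 1 array other than wild type replicate 4 was left out. The rise of Tsc22d3 was thus not accompanied by a called rise of any other member, though the intervals of Ddit4, Per1 and Txnip lay above 0. All 9 tested probes kept their direction in the 18 other fits.

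**Figure D2:**
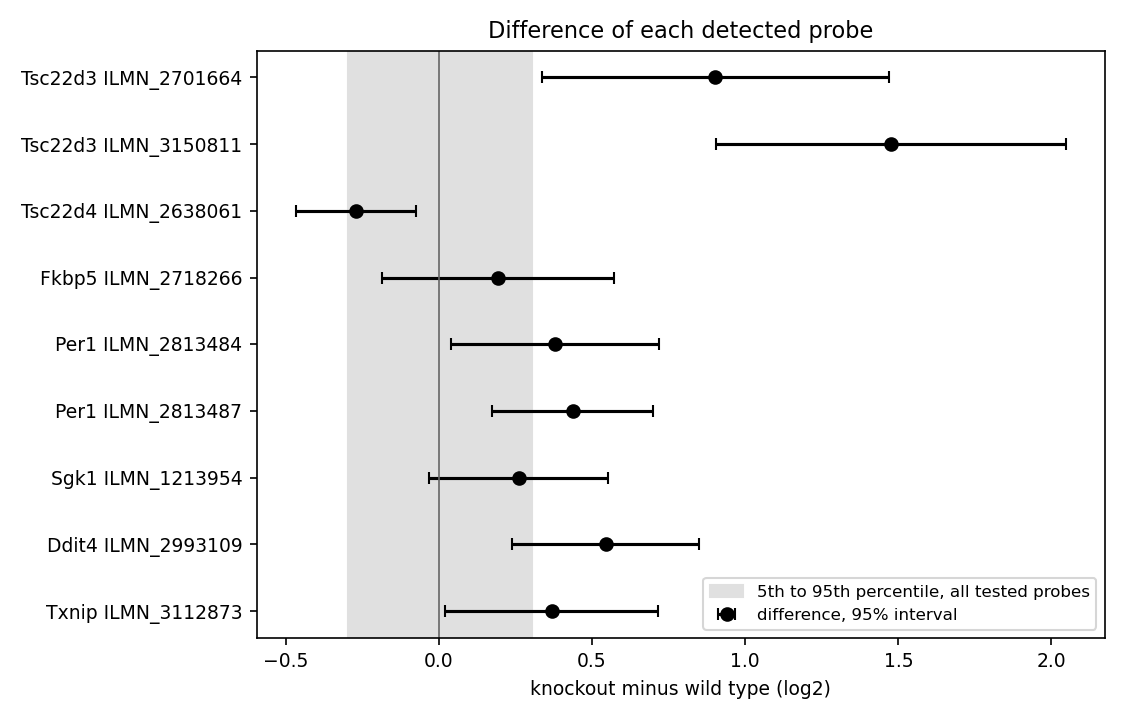
Knockout minus wild type difference in log2 units for each detected member probe, with points for the estimate, bars for limma's 95% interval and a grey band from the 5th to the 95th percentile of all tested probes, -0.297 to 0.304. Both Tsc22d3 probes lie to the right of the others, and the intervals of Fkbp5 and Sgk1 include 0.

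How the members varied among replicates does not depend on the contrast that picked Tsc22d3. Each array's deviation from its own group mean was taken for every tested probe and set against that of Tsc22d3 ILMN_3150811. All 7 detected probes of other members were above 0, with correlations from 0.534 to 0.807 and a median of 0.736 over 8 arrays. Over all tested probes the median was 0.007 and the 5th and 95th percentiles were -0.71 and 0.708. Fkbp5 had r = 0.807 and Txnip r = 0.803, values reached by 2.07% and 2.18% of tested probes. The Per1 probes had 0.736 and 0.775, reached by 4.03% and 2.81%. Tsc22d4 had 0.683, Sgk1 0.627 and Ddit4 0.534, reached by 5.96%, 8.67% and 13.6% of tested probes and so below the 95th percentile. The correlation of Tsc22d4 was thus positive among replicates, within the usual range of tested probes, while its group mean was the lower one in the knockout. The other Tsc22d3 probe had r = 0.924.

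Spearman's rho for these 7 probes ran from 0.50 to 0.81. Without wild type replicates 1 and 4, the arrays farthest from the median of Tsc22d3, Pearson's r ran from 0.559 to 0.87. Of the 9 tested probes, wild type replicate 4 was the highest of its group for 7 and knockout replicate 3 for 7. These points share arrays, so they are a description of 8 hybridisations and are given without a p-value. The first principal component of the within-group deviations of all tested probes held 22.4% of their variance and had a correlation of -0.88 with Tsc22d3, where the sign is arbitrary. What that component contributes to the members' correlations was not tested.

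**Figure D3:**
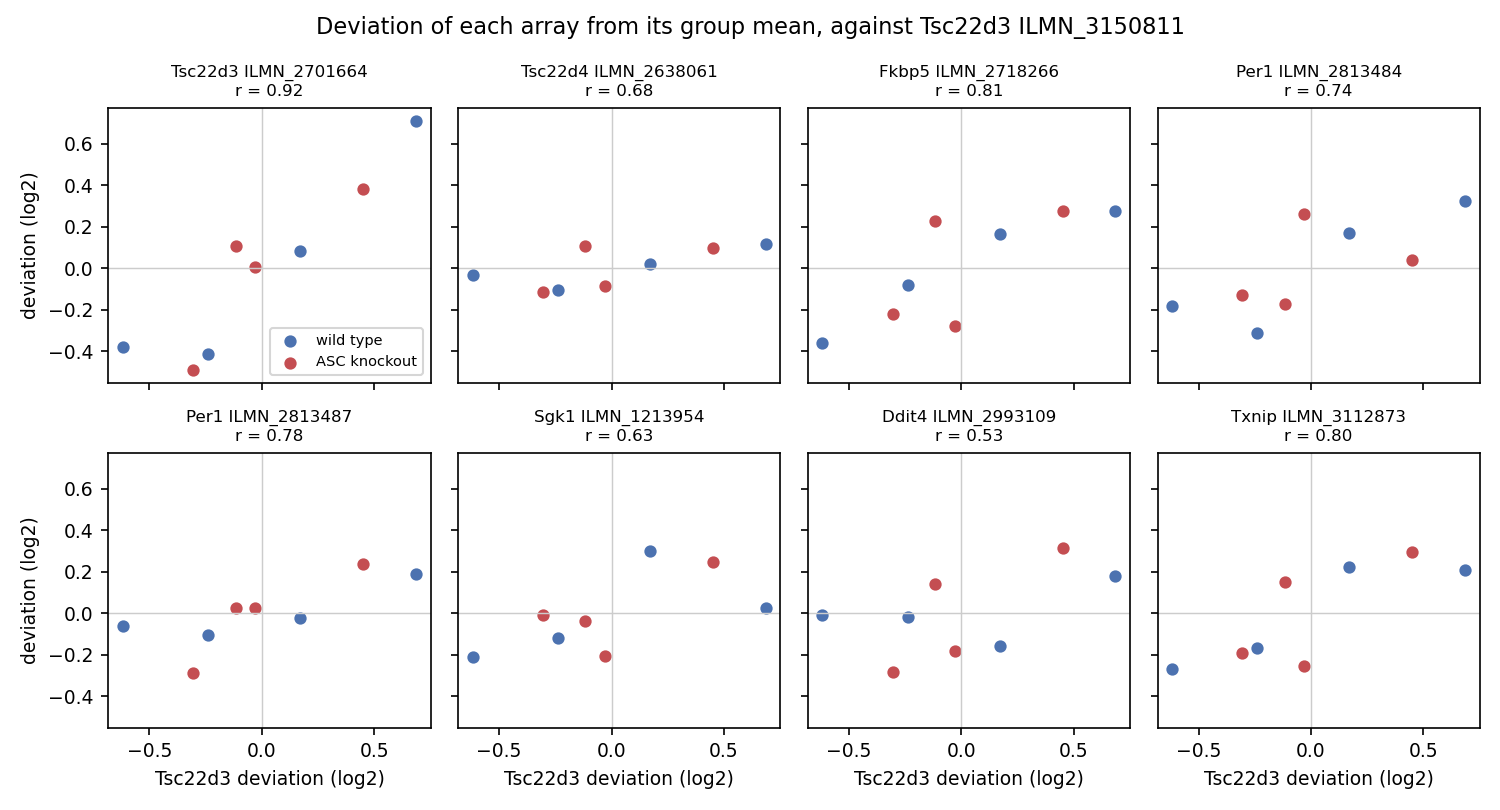
Deviation of each array from its group mean in log2 units, with Tsc22d3 ILMN_3150811 on the horizontal axis and another member probe on the vertical axis of each panel, wild type in blue and ASC knockout in red. All 8 panels slope upward, most steeply for the other Tsc22d3 probe.

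Outside the members, the named genes most like Tsc22d3 in these deviations were Med6 (r = 0.971), Cdc42se1 (0.958), Rasl11b (0.957), Smap2 (0.954) and Sidt2 (0.954), each over 8 arrays. Their own differences (log2, SE, n = 4 per group) were -0.05 ± 0.0966 for Med6, -0.11 ± 0.0827 for Cdc42se1, 0.08 ± 0.0927 for Smap2 and 0.14 ± 0.103 for Sidt2, and larger for Rasl11b at 0.66 ± 0.228 (limma adjusted p = 0.243). None passed the threshold. Med6 was at 0.01 without wild type replicate 4 and Smap2 at -0.05 with median scaling over all probes, so neither has a settled direction.

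A wider list of 36 genes that glucocorticoids are known to induce had 26 tested genes, of which 18 were above 0 and 8 below, with a median of 0.17 at each gene's brightest probe. Called higher by any probe were 3, Dusp1, Cxcr4 and Irs2, the last with a limit given below, and 0 were called lower. At an unadjusted limma p under 0.05 there were 8 higher and 2 lower. Of all tested probes 48.3% were above 0, 0.435% were called higher and 0.408% lower, and 6.61% and 6.40% passed the unadjusted level. Those shares count probes, while calls in each list count genes by any probe, and they stand beside the lists below as well. Dusp1, a phosphatase that switches off MAP kinases, gave 3268.2, 3785.8, 3612.6 and 3739.7 in wild type and 4960.4, 6039.0, 7518.9 and 7712.3 in the knockout, with no overlap. It rose by 1.03 ± 0.151 (log2, SE, n = 4 per group, limma adjusted p = 0.0148, or 0.0517 without wild type replicate 2). Dusp1 is also an immediate early gene of T cell activation and of cell handling.

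Cxcr4, a chemokine receptor, rose by 0.85 ± 0.156, from signals of 319.3 to 435.0 in wild type to 453.9 to 635.1 in the knockout. Its limma adjusted p was 0.0415, and leaving out 1 array ended its call unless that array was wild type replicate 4 or knockout replicate 1, at up to 0.133. Irs2, an adaptor of insulin signalling, passed detection on 4 of 4 knockout arrays against 0 of 4 from wild type. It was at least 1.19-fold higher in cells without ASC, with a limma adjusted p of 0.00878, or 0.0547 without background correction. Irs2 passed the detection filter only through the knockout arrays, so it had to differ. Its call supports nothing about either list that holds it. The same goes for its place in their counts above 0 and at the unadjusted level. Il7r, the interleukin 7 receptor chain, was at 0.84 ± 0.237 and Tnfaip3, an inhibitor of NF-kB signalling, at 0.72 ± 0.15, with limma adjusted p-values of 0.152 and 0.0619. Tnfaip3 passed in 8 of the 18 other fits, and its deviations among replicates had r = 0.924 with Tsc22d3. The metallothionein gene Mt1, a textbook glucocorticoid target named after its value was seen, was on the opposite side at -0.48 ± 0.114 (limma adjusted p = 0.103). Mt2 of the same list was at -0.07 ± 0.119 (limma adjusted p = 0.859). Neither was followed through the other fits.

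A list of 20 genes known to be repressed by glucocorticoids had 11 tested genes, with 6 above 0 and 5 below and a median of 0.01. Csf2, the gene for GM-CSF, was the only one called and was higher, at 254.5 to 442.4 in wild type and 710.2 to 1599.9 in the knockout. It rose by 1.89 ± 0.299 (log2, SE, n = 4 per group), with a limma adjusted p of 0.0212, which became 0.0573 without wild type replicate 3 and 0.0519 without knockout replicate 1. Among replicates it ran against Tsc22d3, at r = -0.555. Fasl, a death ligand, was at 0.37 ± 0.127 and Il1b, detected on 3 knockout arrays and 1 wild type array, at 0.30 ± 0.221, and neither passed. Il1b was at 0.0758 without knockout replicate 4 and 0.09 without background correction.

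**Figure D4:**
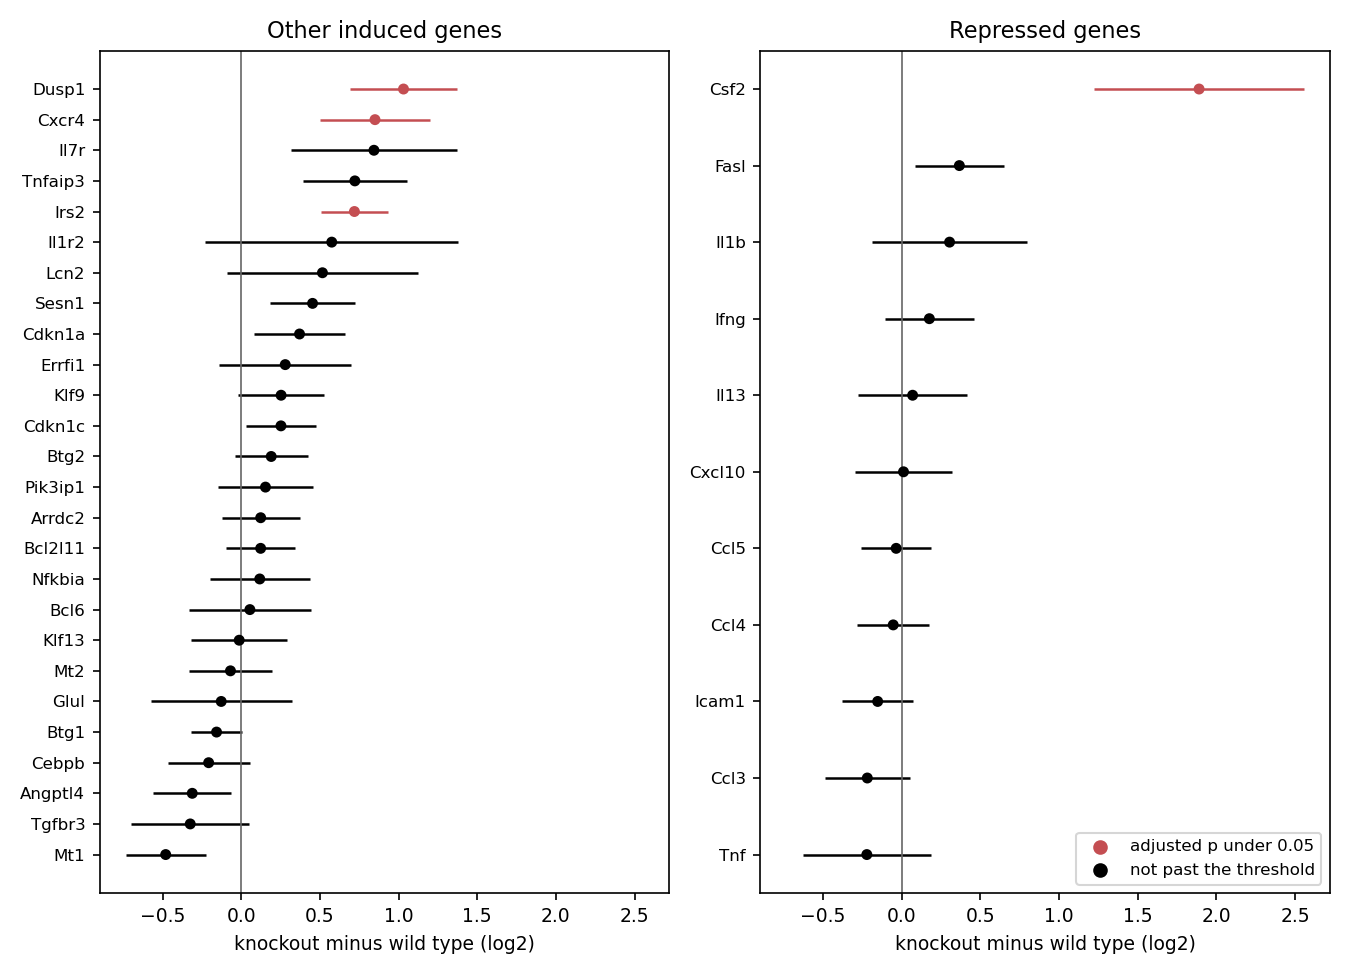
Knockout minus wild type difference in log2 units of the 26 tested genes of the induced list and the 11 of the repressed list, with points for the brightest tested probe, bars for limma's 95% interval and red for an adjusted p under 0.05. Dusp1, Cxcr4 and Irs2 are red in the induced list and Csf2 in the repressed list, all on the right of 0.

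The receptor's chaperones and cofactors had 14 tested genes, with 7 above 0, 7 below and a median of 0.02. By limma 0 were called, with 0 higher and 2 lower at an unadjusted p under 0.05. These were the chaperone genes Hsp90aa1 at -0.41 ± 0.103, where groups did not overlap, and St13 at -0.39 ± 0.15 (limma adjusted p = 0.115 and 0.296). Hsp90aa1 passed in 3 of the 18 other fits.

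Other inputs to the members were described by lists of their own. FoxO factors and their targets, which share 6 of 19 genes with the induced list, had 14 of 15 tested genes above 0 and a median of 0.12. Irs2, with the limit given above, was the only call. At an unadjusted limma p under 0.05, 5 were higher and 0 lower, against 6.61% and 6.40% of all tested probes. Il7r, Sesn1 and Irs2 are among the 5 and were already counted in the induced list. Of the FoxO list the homing receptor gene Ccr7, detected on all 4 knockout arrays but 2 wild type ones, was at 0.46 ± 0.19. It was at 0.30 without wild type replicate 2. Ccr7 is also among the 5, and its knockout arrays alone met the detection filter. With Irs2 and Ccr7 in it, nothing is read from that count. Clock genes had 7 of 11 above 0 and a median of 0.21, with 0 called by limma. At an unadjusted p under 0.05, 3 were higher and 1 lower, beside the same shares of all tested probes. The clock repressor Nr1d2 was dim and was also detected on all 4 knockout arrays but 2 wild type ones. Nr1d2 was at 0.40 ± 0.213, or 0.22 without wild type replicate 2, and the clock output factor Tef at 0.38 ± 0.142.

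Stress and mTOR brake genes had 6 of 9 above 0 and a median of 0.07, with 0 called and 0 at an unadjusted limma p under 0.05. Among them Gadd45b, which growth arrest and stress induce, was at 0.34 ± 0.155 and the stress factor Ddit3 at 0.22 ± 0.273. Single arrays decided the Ddit3 value, which was 0.0075 without wild type replicate 1 and 0.40 without knockout replicate 1. The thioredoxin system and Txnip's arrestin relatives had 0 of 8 above 0 and a median of -0.12, with 0 called and 1 lower at an unadjusted limma p under 0.05, Arrdc4 at -0.39 ± 0.149. Arrdc4 is a paralog of Txnip that glucose induces alongside it, and here the pair pointed in opposite directions without either passing. Arrdc1 was at -0.19 ± 0.105.

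Partners of TSC22 proteins had 3 of 5 above 0 and 0 called by limma, with Nrbp1 at 0.26 ± 0.101 higher and Oxsr1 at -0.27 ± 0.122 lower at an unadjusted p under 0.05. Of the kinase family of Sgk1 and its substrates, 1 of 5 was above 0 and 0 were called by limma. At an unadjusted p under 0.05 there was 1 higher, the substrate Ndrg1, at its dimmer probe. Ndrg1 was at 0.14 ± 0.102 at the brighter probe and 0.31 ± 0.124 at the dimmer, and the upstream kinase Pdpk1 at -0.11 ± 0.0881.

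Lists of genes used as cell type markers were summed over each gene's brightest probe as background-corrected, normalized signal, and some sums differed between groups. Which cells made these transcripts was not measured, so a higher sum does not show that more cells of that type were present. Over 10 CD4 and regulatory T cell markers the sum was 5259 to 5758 in wild type and 7302 to 8727 in the knockout, with no overlap. Above 0 were 6 of 8 tested genes, and the 2 below were Ikzf2 at -0.22 ± 0.164 and Zbtb7b at -0.0045 ± 0.112. Cd4 itself was detected on too few arrays to be tested, and only Cd40lg was not detected on any array. Foxp3, the defining factor of regulatory T cells, rose by 1.09 ± 0.138 (log2, SE, n = 4 per group, limma adjusted p = 0.00576), or by 0.48 without background correction, its probe being dim. Among replicates Foxp3 had r = 0.082 with Tsc22d3, and Ctla4, an inhibitory receptor at 0.63 ± 0.184, had r = 0.835. The natural killer and innate-like list summed to 349.6 to 408.0 and 410.9 to 713.6, without overlap but with a narrow gap. Only 3 of its 6 genes had a probe, and its defining gene Ncr1 was not detected. Above 0 were 2 of 2 tested genes, Klre1 at 0.49 ± 0.185 and Klrb1c at 0.04 ± 0.289, each with overlapping groups.

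The sums overlapped for the remaining lists. B cell markers gave 766.4 to 938.9 and 708.7 to 1038, with 2 of 3 tested genes above 0 and Cd79a, Ms4a1 and Blk not detected on any array. Myeloid markers gave 2285 to 3329 and 2115 to 3890, with 5 of 7 above 0 and Itgam not detected. The neutrophil gene S100a9 had the largest difference among them at 1.08 ± 0.329 (limma adjusted p = 0.187), and its groups overlapped. The 2 below 0 were Lyz1 at -0.17 ± 0.201 and Lyz2 at -0.21 ± 0.19. Erythroid and platelet markers gave 70.8 to 155.5 and 103.5 to 254.7, with 2 of 2 above 0 and Alas2, Pf4 and Ppbp not detected. CD8 T cell identity genes gave 70290 to 76890 and 72060 to 73600, with 2 of 5 above 0. The part of any of these cells in the Tsc22d3 difference was not tested.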

How the data were processed

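Gene expression of 4 wild type and 4 ASC knockout CD8+ T cell samples was measured on Illumina MouseRef-8 arrays. The submitters' processing notes name GenomeStudio without a version. For every probe and array the authors deposited a non-normalized intensity with its detection p-value, per the file headers. The authors' deposited value table holds log2 values, which matched quantile-normalized log2 signals, centred per probe on the median of 8 arrays, to within 0.000589. Its column medians ran from -0.000454 to 0.000527. Scale and direction follow the signal.

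Intensities were background-corrected with limma's nec from the detection p-values (offset 16), normalized by quantiles and log2-transformed. Probes detected (p under 0.05) on at least 4 of 8 arrays were tested, 11270 or 43.9%, covering 7759 named genes. The contrast was fitted with lmFit and eBayes and adjusted by Benjamini-Hochberg over these probes. A gene not detected in a group is given as a bound: the detected group's mean over that of a floor, which on each array is the lowest detected signal or, where higher, the probe's own. The number of arrays limits precision, and the median SE of a log2 difference was 0.109.

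The members, lists, motifs and tests were chosen with earlier results of these data known. Named genes were all members, the called genes of each list and up to 2 more with the largest difference, and the 5 genes most like Tsc22d3. The alternatives changed the background model, normalization, detection filter, source of values, array weights, variance model, replicate block and arrays used. The code was tested on simulated data. Symbols come from the platform annotation, updated through Entrez identifiers to GRCm38.p6. Of all probes 23978 had 1 symbol and 1719 had none. Promoter windows were used for 7 of the 10 members. Computations used R 4.3.3 and limma 3.58.1.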

Additional observations from a re-analysis of the deposited data

How the results depend on the processing

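With the reported processing 48 genes were called higher and 40 lower, and 1 member gene higher. Offset 50 gave 96, 70 and 2, no background correction 112, 88 and 2, the authors' values also 112, 88 and 2, no detection filter 30, 26 and 0, and the trended and robust variance model 116, 88 and 1. The second called member was Ddit4. In the last of these settings the called member was Ddit4 and no longer Tsc22d3. Median scaling over all probes moved the share of calls that were higher from 54.5% to 36.8%, with Tsc22d3 ILMN_3150811 at 1.37 (log2).

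Leaving out 1 array gave 15 to 38 genes higher, 15 to 32 lower and 0 to 1 member higher, the 1 being Tsc22d3 without wild type replicate 4. In the other 10 settings Tsc22d3 ILMN_3150811 ranged from 1.29 to 1.57. The dimmer probe ILMN_2701664 fell to 0.33 without background correction and to 0.33 in the authors' value table, while leaving out 1 array gave 0.76 to 1.14. In no fit did a tested member probe change direction. The undetected Tsc22d1 probes changed sign in some fits by less than their spread.

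The replicate numbers are shared by the groups, and the labels do not say whether they pair samples. Same-numbered samples had deviations correlated at 0.0139, 0.107, 0.132 and -0.0999. Correlations over all tested probes cannot decide whether such samples shared a day or batch. With the replicate block 26 genes were called higher and 20 lower, 1 member among them. Of the list genes, Cxcr4 and Csf2 lost their calls under the replicate block (adjusted p = 0.0599 and 0.0868) while Tnfaip3 gained one (0.0465). Cxcr4 also lost its call with no detection filter (0.0741) and Csf2 with the trended and robust variance model (0.0676). The cause of these changes was not tested. Signal over background limits Nr3c1, Tsc22d1, Irs2, Foxp3 and the dim probes of Tsc22d3 and Per1. Without background correction Ccr7 was at 0.13, Nr1d2 at 0.11, Tef at 0.16, Nrbp1 at 0.16, Ndrg1 at 0.08, S100a9 at 0.65, Arrdc4 at -0.13 and Arrdc1 at -0.11.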
